A study of Homo sapiens with 9 samples.

Results

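The transcripts described here encode the heat shock chaperones of the cytosol and their close partners: the inducible HSP70 proteins HSPA1A and HSPA1B, the constitutive HSP70 HSPA8, the HSP90 proteins HSP90AA1 and HSP90AB1, the HSP110 protein HSPH1, the J-domain protein DNAJB1, the chaperonin pair HSPD1 and HSPE1, and the co-chaperone BAG3. These 10 genes were chosen by name as members of this family, though with earlier results of these data known. All 10 had a row among the 15354 rows of the table, and all 10 passed the filter on low values. The products of HSPD1 and HSPE1 work in the mitochondrial matrix, so the word cytosolic covers the other 8 genes only. The libraries were made from HCT116, an established human colorectal cancer cell line, with oligo-dT selected RNA read as single ends of 50 bases.

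Cells were reverse transfected at 25 nM, with a non-targeting control siRNA in the control group, and with siRNA A or siRNA B, which are directed against the long non-coding RNA SNHG5, in the other groups. Each group had 3 libraries, and the time of harvest was the same in all groups per the study's methods. The comparisons ask whether transcripts change when SNHG5 is targeted, and whether the pair of siRNAs acts alike. Each siRNA was compared with the same control libraries, so these comparisons are not independent of each other. Bulk RNA was measured, in which fewer cells that transcribe a gene and less RNA per cell cannot be told apart.

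The libraries held 15566530 to 23277549 reads, and the 10 genes took 1.18% to 1.56% of them. Values are CPM, the reads of a gene over those of its library at a fixed common total, after TMM scaling, a trimmed mean that sets libraries level on the bulk of their genes. SNHG5, the targeted transcript, was measured at 31.3, 22.1 and 25.9 in the control libraries, at 71.5, 58.8 and 67.3 in those labelled siRNA A, and at 46.2, 50.3 and 46.1 in those labelled siRNA B. All 6 libraries of the knock-down groups were therefore above, and not below, the control, and every direction given below rests on those labels. The study reported lower SNHG5 with both of its siRNAs by qRT-PCR in HCT116 cells, at a higher stated dose. In the annotation used here SNHG5 covers 12604 exon bases and overlaps PKMP3 and an unnamed gene on its own strand. The part of these overlaps in its counts was not tested. All 6 epithelial markers checked were present, with EPCAM at 94.6 to 214 CPM and KRT8 at 884 to 1601 CPM as deposited, while the leukocyte marker CD14 did not exceed 0.556 CPM and the fibroblast gene COL1A1 reached 8.55 to 19.5 CPM. These markers also differed between the groups. KRT8, KRT18 and KRT19 rose with siRNA A by 1.06, 1.01 and 1.09 on the log2 scale, and EPCAM fell by 0.55. CDH1 and CLDN4 were not called, though CLDN4 was called lower on library totals alone (-0.41). With siRNA B, KRT8 rose by 0.59 and the other 5 were not called, of which CDH1, CLDN4 and EPCAM were called lower on library totals alone. KRT19 (0.37) was called in 5 of 18 alternatives, and KRT18 (0.27) in 1. COL1A1 fell by 0.46 in siRNA A libraries and in those of siRNA B by 0.79. The part of these differences in the results below was not tested. The other leukocyte and fibroblast markers and the endothelial markers were not analysed here.

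HSP70 proteins bind unfolded stretches of client proteins in cycles driven by ATP. J-domain proteins such as DNAJB1 deliver clients and stimulate the hydrolysis, and HSP110 and BAG proteins release the nucleotide. HSP90 takes over many clients late in folding, among them kinases and steroid receptors. The transcription factor HSF1 controls the inducible members through heat shock elements, which are built of inverted repeats of the unit GAA, and cancer cells often carry high levels of these chaperones.

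The promoters of the members are shown first, because the heat shock element is the sequence that this family is best known to share. Windows from 250 bases before to 50 bases after the start site were taken from RefSeq (GRCh38.p14), and all 10 members matched, with 16 windows. Elements of 2 units were searched as GAANNTTC and TTCNNGAA, which each read the same on both strands, and elements of 3 units as GAANNTTC followed by NNGAA and TTCNNGAA followed by NNTTC, which are each other's reverse complement and contain those of 2 units. An element of 2 units was found in 7 of the 10 genes, against 16.2% of 27305 genes and 13.5% of all 35116 windows. An element of 3 units was found in 4 of them, against 0.608% of genes and 0.490% of windows. In the following stretches, read 5′ to 3′ on the strand of the gene, capitals mark the elements, merged where they overlap. Each stretch reaches at most 20 bases beyond the outermost elements, and the start sites lie downstream of them.
HSPA8: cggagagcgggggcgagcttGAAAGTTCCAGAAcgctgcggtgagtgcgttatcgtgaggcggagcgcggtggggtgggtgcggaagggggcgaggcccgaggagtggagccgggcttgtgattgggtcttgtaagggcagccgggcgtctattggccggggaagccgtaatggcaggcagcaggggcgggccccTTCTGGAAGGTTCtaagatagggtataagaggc
HSP90AA1: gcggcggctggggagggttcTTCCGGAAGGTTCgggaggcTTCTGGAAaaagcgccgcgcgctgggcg
HSP90AB1: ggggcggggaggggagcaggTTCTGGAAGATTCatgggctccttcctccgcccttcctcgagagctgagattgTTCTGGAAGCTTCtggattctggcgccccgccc
HSPD1: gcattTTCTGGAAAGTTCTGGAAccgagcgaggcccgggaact
DNAJB1: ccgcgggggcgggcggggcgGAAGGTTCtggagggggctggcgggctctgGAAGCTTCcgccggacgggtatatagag
HSPA1A: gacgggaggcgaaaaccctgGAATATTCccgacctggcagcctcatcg
HSPA1B: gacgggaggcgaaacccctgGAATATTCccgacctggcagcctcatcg

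The HSPA8 stretch is chr11:123062159-123062386 (minus strand), with elements of 3 units at positions -230 to -218 and -55 to -43, counted from the start site as 0. HSP90AB1 at chr6:44247758-44247863 (plus strand) also had a pair of 3-unit elements, at -165 to -153 and -112 to -100. HSP90AA1 at chr14:102087085-102087152 (minus strand) had 1 element of 3 units at -88 to -76 and 1 of 2 units at -68 to -61. HSPD1 at chr2:197500048-197500090 (minus strand) held an unbroken run of overlapping elements whose near edge was 228 bases before 1 of its 2 listed starts. HSPE1 starts 539 bases from that HSPD1 start and is transcribed away from it. The run lay between them, 294 bases before the HSPE1 start and therefore outside the HSPE1 window. The other HSPD1 start lies nearer to HSPE1, so the run comes after it, and its window held no element. DNAJB1 at chr19:14518417-14518494 (minus strand) had a pair of 2-unit elements before 1 of its 3 listed starts. A further 2-unit element at chr19:14517929-14517936, at positions 1 to 8 from another of these starts and so after it, is not shown. HSPA1A at chr6:31815417-31815464 and HSPA1B at chr6:31827613-31827660 (both plus strand) each had a single 2-unit element, and the 48 bases shown for these neighbours differed at 1 position. For HSPH1, BAG3 and HSPE1 these letters were not in the window, which says nothing of elements of other spelling or place.

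**Figure D1:**
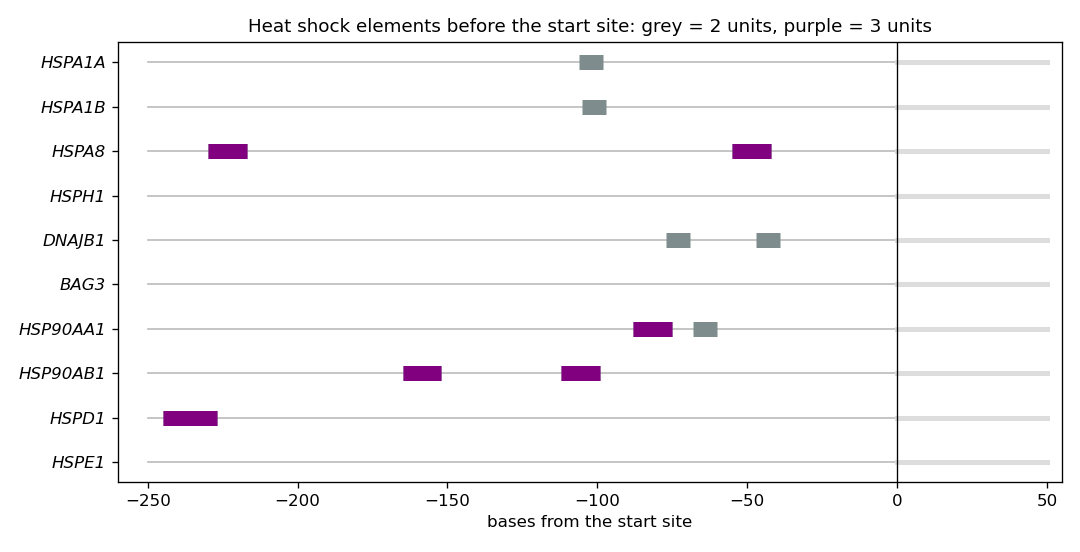
Position of heat shock elements in the promoter window of each gene, in bases from the start site (x axis), with 2-unit elements in grey and 3-unit elements in purple. For DNAJB1, HSP90AA1, HSP90AB1 and HSPD1, which have several listed starts, elements before a start are drawn, placed from that start, and a 2-unit element of DNAJB1 that follows another of its starts is not. The 3-unit elements stand in HSPA8, HSP90AA1, HSP90AB1 and HSPD1, and HSPH1, BAG3 and HSPE1 have none of either kind.

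In control cells the level per kilobase of the main transcript spanned a wide range. HSP90AA1 stood at 1269 ± 222, HSP90AB1 at 1245 ± 173 and HSPA8 at 1227 ± 95.9 TMM-scaled CPM per kilobase (SD, n = 3), and the libraries of these 3 overlapped, so their order is not set. HSPD1 followed at 348 ± 39.2 and HSPE1 at 181 ± 13.9, each clear of its neighbours in the order. DNAJB1 (101 ± 4.83) and HSPH1 (91.9 ± 10.8) overlapped each other, as did HSPA1B (65.8 ± 11.3) and BAG3 (56.2 ± 7.32). HSPA1A was lowest, at 1.30 ± 0.187.

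Some of these levels depend on how reads that fit several places were counted, which is not given in the sources used here. Of the 50-base windows of the spliced transcript, measured exon by exon on GRCh37, those that occur only once in the genome made up 24.9% in HSPA1A and 28.4% in HSPA1B, 56.8% in HSPD1 and 65.1% in HSPE1. They made up 76.9% in HSPA8, 77.2% in HSP90AA1 and 78.4% in HSP90AB1, and 95.5% or more in DNAJB1, HSPH1 and BAG3. HSPA1A took 20 to 90 reads per library, 1.50% to 3.05% of the reads of the HSPA1A and HSPA1B pair, so the split between these near-identical neighbours is uncertain.

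With siRNA A, 3 of the 10 transcripts passed the test, all of them higher: HSP90AB1, HSPD1 and HSPE1. With siRNA B, HSPD1 was also higher, and HSPA1A, HSPA1B and DNAJB1 were lower. The libraries labelled siRNA A stood above those labelled siRNA B for 5 transcripts, namely HSPA1B, HSP90AB1, DNAJB1, HSPD1 and HSPE1. HSPA8, HSP90AA1, HSPH1 and BAG3 did not pass this test in any of the 3 comparisons.

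These counts have to be read against how much else moved. Of 13893 genes tested, 51.4% were called with siRNA A (23.9% higher and 27.6% lower), 34% with siRNA B (15.6% higher and 18.3% lower), and 37.1% between the siRNAs (17.6% higher and 19.5% lower in those labelled siRNA A). The share of the 10 members called in either direction, 3 of 10, was therefore no larger than the background with siRNA A. With siRNA B it was 4 of 10, and between the siRNAs 5 of 10, all higher in those labelled siRNA A. These shares were above the background, and whether they differ from it was not tested. Groups did not overlap for 5 members with siRNA A, 5 with siRNA B and 7 between the siRNAs, where 59.5%, 47.6% and 47.6% of all genes did not overlap. The median log2 difference of the members was 0.19 with siRNA A against -0.02 for all genes, -0.03 with siRNA B against 0.0043, and 0.37 between the siRNAs against -0.01.

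Scaling changes this picture. The deposited CPM divide by the library total alone, and on that scale the median of all genes was -0.34 with siRNA A, -0.18 with siRNA B and -0.15 between the siRNAs (log2), a shift of -0.369, -0.213 and -0.156 from TMM scaling. The members called became 2 higher (HSP90AB1 and HSPD1) and 3 lower (HSPA1A, HSPA1B and BAG3) with siRNA A, and 0 higher and 4 lower with siRNA B. Over all genes the calls moved from 3314 higher and 3831 lower to 1257 and 6532 with siRNA A, from 2172 and 2547 to 958 and 4127 with siRNA B, and from 2452 and 2703 to 1415 and 3750 between the siRNAs. The values below are relative to the bulk of the transcriptome, which is what TMM scaling gives.

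**Figure D2:**
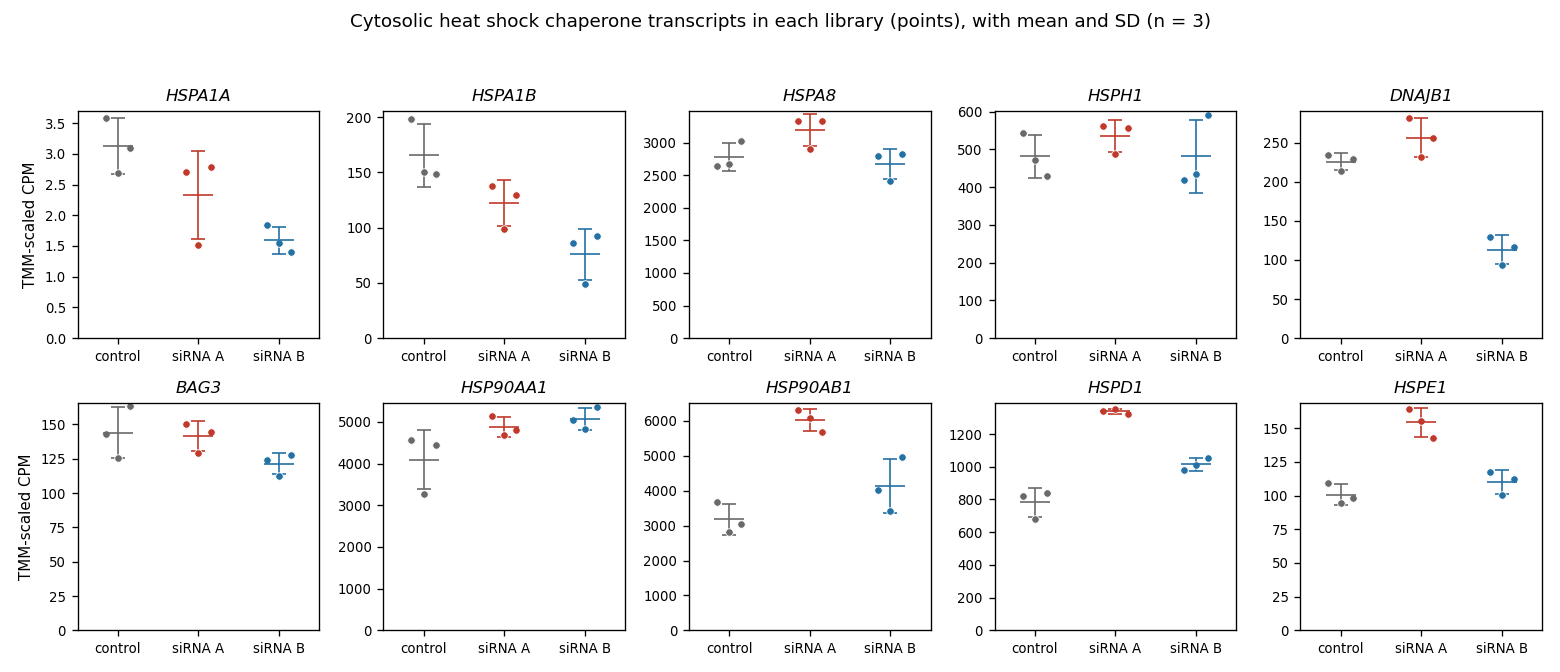
TMM-scaled CPM (y axis, from 0) of each of the 10 transcripts in the control, siRNA A and siRNA B libraries, where points are single libraries and bars give mean and SD (n = 3). HSP90AB1 and HSPD1 stand highest in the siRNA A libraries, and DNAJB1 and HSPA1B lowest in the siRNA B libraries.

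Among the HSP70 genes, HSPA1B, the stress-inducible form on chromosome 6 (GRCh37 chr6:31795515-31798031, plus strand, 1 exon), had the largest decrease with siRNA B. HSPA1B overlaps an unnamed gene on its own strand. It was measured at 198, 150.2 and 148 in the control libraries, at 138, 99.1 and 130.0 in those labelled siRNA A, and at 86.1, 49.2 and 92.2 in those labelled siRNA B. All siRNA A libraries lay below all control libraries, and all siRNA B libraries below both. With siRNA B the log2 difference was -1.15 (SE 0.217, adjusted p = 0.0019), a level of 0.449 times the control. With siRNA A it was -0.44 (SE 0.217, adjusted p = 0.114). That comparison passed on library totals alone (-0.80, adjusted p = 0.0094), as it did in the fit blocked on replicate number (-0.44, adjusted p = 0.0157), with the siRNA B libraries left out of the fit (-0.44, adjusted p = 0.0316) and without siRNA B replicate 2 (-0.44, adjusted p = 0.0243).

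HSPA1A (chr6:31783320-31785723, plus strand) showed the same order at a far lower level. It was measured at 3.59, 2.69 and 3.10 in control, 2.71, 1.51 and 2.79 with siRNA A, and 1.83, 1.55 and 1.40 with siRNA B. Only the siRNA B libraries were clear of the control libraries. The log2 difference was -0.67 with siRNA B (SE 0.176, adjusted p = 0.0125) and -0.33 with siRNA A (SE 0.176, adjusted p = 0.141; -0.13 without siRNA A replicate 2), on a scale that understates the change of such low values. The latter passed on library totals alone (-0.59, adjusted p = 0.0145). Between the siRNAs the difference was 0.34 (adjusted p = 0.148), and without siRNA A replicate 2 it passed (0.54, adjusted p = 0.0234).

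HSPA8, the constitutive HSP70 that folds much of the new protein of unstressed cells (chr11:122928197-122933938, minus strand), was among the most abundant members in every library. Control libraries held 2638, 2669 and 3029, siRNA A libraries 3336, 2909 and 3333, and siRNA B libraries 2791, 2414 and 2828. Both groups overlapped the control. The log2 difference was 0.20 with siRNA A (95% interval -0.09 to 0.49, adjusted p = 0.221) and -0.05 with siRNA B (-0.34 to 0.23, adjusted p = 0.782). Between the siRNAs it was 0.25 (adjusted p = 0.148), which DESeq2 called (0.28, adjusted p = 0.0318). The gene hosts the small nucleolar RNAs SNORD14C, SNORD14D and SNORD14E in its introns and overlaps an unnamed gene on the other strand, and the use of strand in counting was not given.

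DNAJB1, the J-domain partner that supplies HSP70 with clients (chr19:14625581-14671203, minus strand, overlapping TECR on the other strand), had the largest difference between the siRNAs among the 10 members. Its values were 234, 213 and 229 in control, 281, 232 and 256 with siRNA A, and 129.9, 93.9 and 116 with siRNA B. The siRNA B libraries were all below the control libraries, which the siRNA A libraries overlapped. With siRNA B it fell by 0.998 on the log2 scale (SE 0.125, adjusted p = 0.00015), to 0.501 times the control. With siRNA A the log2 difference was 0.18 (SE 0.125, adjusted p = 0.245). Between the siRNAs it was 1.18 (adjusted p = 5.8e-05), and this call held under each of the 18 alternatives.

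HSPH1, the HSP110 that acts as nucleotide exchange factor for HSP70 (chr13:31709110-31736525, minus strand), was measured at 542, 472 and 430 in control, 562, 487 and 557 with siRNA A, and 418, 434 and 592 with siRNA B. All groups overlapped. Its log2 difference was 0.16 with siRNA A (95% interval -0.16 to 0.47) and -0.01 with siRNA B (-0.33 to 0.30).

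BAG3, which releases HSP70 clients and couples them to autophagy (chr10:121410892-121437331, plus strand), held 143, 126 and 163 in control, 150.5, 129 and 144 with siRNA A, and 124, 113 and 128 with siRNA B. The siRNA A libraries lay inside the range of the control, and the siRNA B libraries overlapped its lower end. The log2 difference was -0.02 with siRNA A (adjusted p = 0.887) and -0.24 with siRNA B (95% interval -0.49 to 0.01, adjusted p = 0.128). On library totals alone it passed the test in both, at -0.39 (adjusted p = 0.016) and -0.45 (adjusted p = 0.0119), and without control replicate 2 with siRNA B (-0.35, adjusted p = 0.0471).

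The HSP90 pair moved unequally. HSP90AB1, the constitutive isoform (chr6:44213903-44221625, plus strand), was measured at 3675, 2825 and 3045 in control, 6309, 6071 and 5694 with siRNA A, and 4020, 3426 and 4967 with siRNA B. Every siRNA A library stood above every library of the other groups, while siRNA B libraries overlapped the control. It rose 1.90-fold with siRNA A (log2 difference 0.93, SE 0.167, adjusted p = 0.00076). With siRNA B the log2 difference was 0.37 (SE 0.167, adjusted p = 0.106), which passed with DESeq2 (0.39, adjusted p = 0.0313) and without siRNA B replicate 2 (0.50, adjusted p = 0.0439). Libraries labelled siRNA A exceeded those labelled siRNA B by 0.56 (adjusted p = 0.0214).

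HSP90AA1, the stress-inducible isoform (chr14:102547079-102606036, minus strand, overlapping WDR20 on the other strand), held 4571, 3272 and 4442 in control, 5135, 4680 and 4813 with siRNA A, and 5052, 4824 and 5348 with siRNA B. Control replicate 2 was the lowest of all libraries. Although all libraries of either siRNA stood above the control, the log2 differences of 0.27 (SE 0.156, adjusted p = 0.174) and 0.32 (SE 0.156, adjusted p = 0.131) did not pass the test, except with DESeq2 for siRNA B (0.32, adjusted p = 0.0485). Between the siRNAs it was -0.06 (95% interval -0.40 to 0.28).

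The mitochondrial chaperonin subunits HSPD1 (HSP60, chr2:198351308-198381461, minus strand) and HSPE1 (HSP10, chr2:198364864-198368173, plus strand) lie head to head and, in this annotation, overlap each other. Both also overlap HSPE1-MOB4, which lies on the strand of HSPE1, and HSPD1 overlaps MOB4 on that strand. The part of these overlaps in the counts was not tested. HSPD1 was measured at 824, 681 and 841 in control, 1343, 1355 and 1324 with siRNA A, and 978, 1012 and 1055 with siRNA B. The 3 groups did not overlap. It rose 1.72-fold with siRNA A (log2 difference 0.78, SE 0.112, adjusted p = 0.00017) and 1.30-fold with siRNA B (0.38, SE 0.112, adjusted p = 0.0207). The siRNA B call was lost on library totals alone (0.17, adjusted p = 0.241), without control replicate 2 (0.27, adjusted p = 0.0951) and without siRNA B replicate 3 (0.35, adjusted p = 0.0682).

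HSPE1, the lid of that chaperonin, held 109, 94.6 and 98.2 in control, 164, 156 and 143 with siRNA A, and 117, 100.1 and 112 with siRNA B. Every siRNA A library was above the rest, and siRNA B overlapped the control. It rose 1.53-fold with siRNA A (log2 difference 0.61, SE 0.103, adjusted p = 0.0005), a call lost on library totals alone (0.24, adjusted p = 0.0916). With siRNA B the log2 difference was 0.13 (95% interval -0.10 to 0.35).

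**Figure D3:**
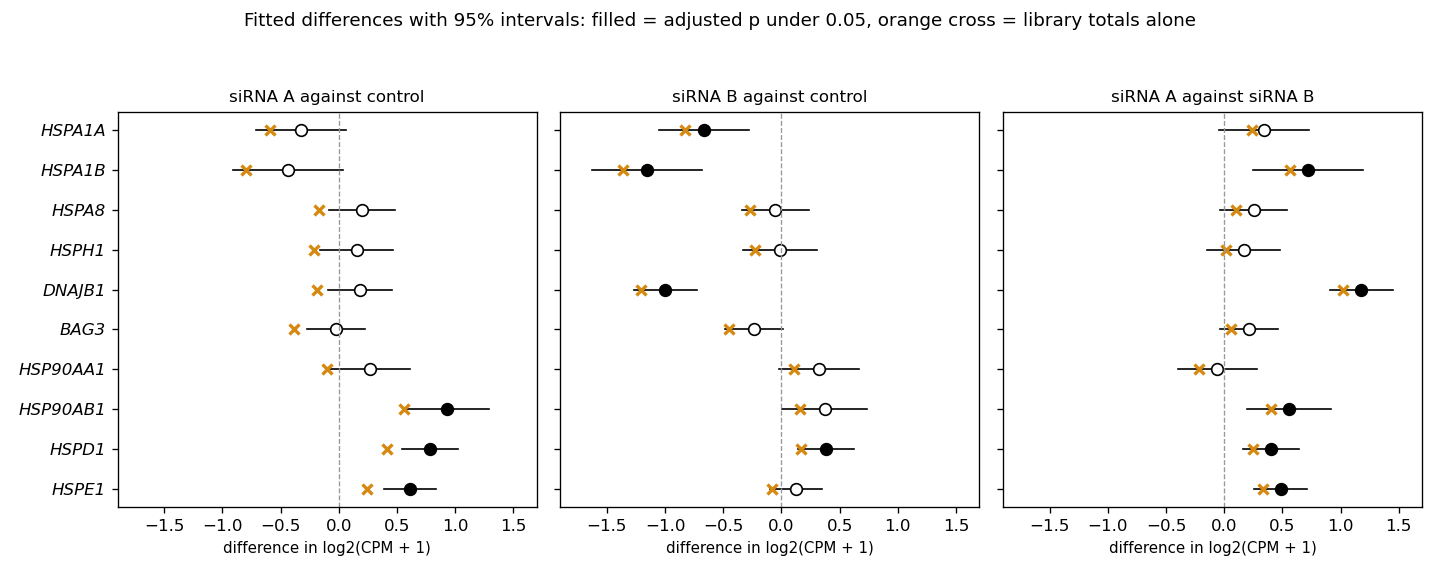
Difference in log2(CPM + 1) (x axis) with its 95% interval for each transcript in the 3 comparisons, where filled points passed an adjusted p of 0.05 and orange crosses give the value on library totals alone. The crosses lie to the left of the points throughout, and with siRNA A those of HSPA8, HSPH1, DNAJB1 and HSP90AA1 lie on the other side of 0.

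Between the siRNAs, the libraries labelled siRNA A were higher for all 5 transcripts called, and the sizes were 1.18 for DNAJB1, 0.72 for HSPA1B, 0.56 for HSP90AB1, 0.48 for HSPE1 and 0.40 for HSPD1 (log2). On library totals alone, 2 of these calls remained, DNAJB1 and HSPE1. Without siRNA A replicate 1, siRNA B replicate 1 or siRNA B replicate 2, 3 calls were made. HSPA1B was not called without siRNA A replicate 1 (0.63), siRNA A replicate 3 (0.67) or siRNA B replicate 2 (0.44). HSP90AB1 was not called without siRNA A replicate 1 (0.52), siRNA B replicate 1 (0.55) or siRNA B replicate 2 (0.43), nor with no filter on low values (0.56, adjusted p = 0.0504), and HSPD1 not without siRNA B replicate 1 (0.38).

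Ratios of reads within a library do not depend on scaling between libraries. The pairs below were chosen after the values were seen, so they are given as descriptions without a test. HSP90AB1 had 0.804, 0.863 and 0.686 reads per HSP90AA1 read in control and 0.796, 0.710 and 0.929 with siRNA B. With siRNA A it had 1.23, 1.30 and 1.18, so HSP90AB1 had more reads than HSP90AA1 in these 3 libraries only. DNAJB1 had 0.0888, 0.0799 and 0.0756 reads per HSPA8 read in control and 0.0843, 0.0796 and 0.0770 with siRNA A, but 0.0466, 0.0389 and 0.0410 with siRNA B.

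HSPA1B to HSPA8 stood at 0.0601 ± 0.0136 in control, 0.0381 ± 0.0037 in siRNA A and 0.0279 ± 0.0066 in siRNA B libraries (SD, n = 3), with no overlap between groups. HSPD1 to HSPE1 was 7.76 ± 0.712, 8.72 ± 0.548 and 9.27 ± 0.889 in the same order, and the groups overlapped. HSPD1 to HSPA9, the HSP70 of the mitochondrial matrix, was 1.33 ± 0.0727 in control, 3.45 ± 0.0362 in siRNA A libraries and 1.20 ± 0.0379 in those of siRNA B.

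**Figure D4:**
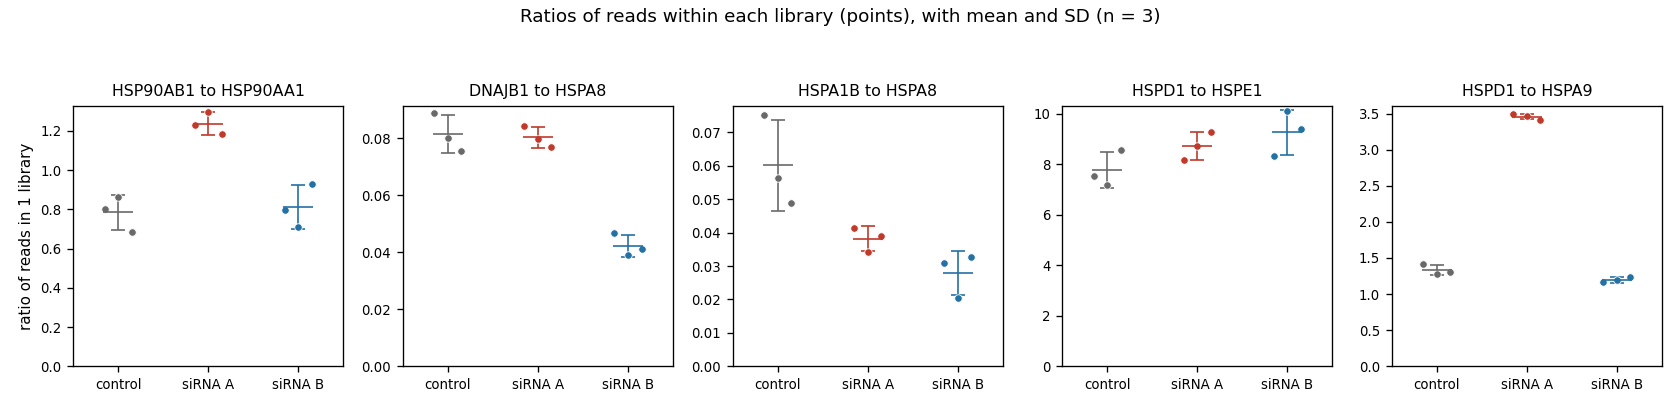
Ratio of reads of a pair of transcripts (y axis, from 0) in each library of the control, siRNA A and siRNA B groups, with mean and SD (n = 3). HSP90AB1 to HSP90AA1 and HSPD1 to HSPA9 stand apart in siRNA A, DNAJB1 to HSPA8 in siRNA B, and HSPD1 to HSPE1 overlaps between groups.

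The wider network was counted from lists of pathway genes, with the calls on library totals alone given after those on TMM scaling. Of the genes of these lists named below, CDC37L1, DNAJB9, GRPEL1, HSPA5, HSPB1, ST13 and SUGT1 overlap no other annotated gene. The others do, so that part of their reads may belong to a neighbour. Of 5 heat shock factors and regulators, 2 were higher and 0 lower with siRNA A (0 and 2 on totals, and 1 lower in the fit blocked on replicate number or with control replicate 3 left out), and 1 was higher and 1 lower with siRNA B (0 and 2). The 2 higher with siRNA A became 1 with no filter on low values, with a filter at 5 CPM, and without control replicate 2 or 3, siRNA A replicate 1 or 2, or siRNA B replicate 1 or 3, since HSBP1 passed narrowly (0.32, adjusted p = 0.0489). HSF1, the factor that drives the inducible members, held 105, 107 and 93.3 in control, 106, 92.1 and 90.4 with siRNA A, and 71.8, 61.2 and 68.6 with siRNA B. It fell by 0.59 on the log2 scale with siRNA B (SE 0.106, adjusted p = 0.0014), with every library below the control. With siRNA A its log2 difference was -0.08 (adjusted p = 0.545), which on totals alone was -0.45 (adjusted p = 0.00975). Libraries labelled siRNA A exceeded those labelled siRNA B by 0.51 (adjusted p = 0.0032). HSBP1L1, a relative of the HSF1-binding protein HSBP1, was called higher with siRNA A (0.62) and siRNA B (0.56), and neither call held on totals alone. With siRNA B its call was also lost without control replicate 2 (0.47) or 3 (0.53), or without siRNA B replicate 1 (0.47) or 3 (0.48).

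Of 6 other cytosolic HSP70 and HSP110 genes, 4 were tested, with 2 higher and 1 lower for siRNA A (0 and 2 on totals) and 0 called in either direction by limma for siRNA B (likewise 0 on totals, by edgeR, by DESeq2 or at an unadjusted p under 0.05). HSPA14, a ribosome-associated HSP70, rose by 0.45 with siRNA A (log2, not called on totals alone) and HSPA2, an HSP70 best known from the testis, fell by 0.59. Of 13 other J-domain proteins, 7 were higher and 1 lower with siRNA A (2 and 6 on totals, and 3 lower with the block), and 2 higher and 4 lower with siRNA B (0 and 6). For siRNA B, the 2 higher became 0 without control replicate 2 or siRNA B replicate 1 and 1 without siRNA B replicate 3, and the 4 lower became 1 without control replicate 3 or siRNA B replicate 2. The 1 lower with siRNA A became 2 without siRNA A replicate 3 or siRNA B replicate 2. DNAJC2, the ribosome-associated partner of HSPA14, had log2 differences of 0.90 with siRNA A and 0.62 with siRNA B. The latter was not called on totals alone or without control replicate 2 (0.39), siRNA B replicate 1 (0.63) or siRNA B replicate 3 (0.54). DNAJC5, the cysteine string protein, fell by 0.51 in siRNA A libraries, and in siRNA B libraries by 1.31.

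Of 8 co-chaperones of HSP70 (other BAG proteins, HSPBP1, ST13 and STUB1), 4 were higher and 1 lower with siRNA A (1 and 3 on totals). With siRNA B, 3 were higher and 1 lower (1 and 2 on totals, and 2 lower with the block). The 3 became 1 when control replicate 2 or 3, or replicate 1 of siRNA B, was left out. ST13, a partner of HSP70, was measured at 75.5 ± 3.58 in control, 181 ± 13.7 in siRNA A and 146 ± 8.84 in siRNA B libraries (SD, n = 3), log2 differences of 1.25 and 0.94. STUB1, the ubiquitin ligase that marks HSP70 clients, fell by 0.48 and by 0.89. Of 16 HSP90 co-chaperones, 9 were higher and 2 lower with siRNA A (0 and 5 on totals, and 4 lower with the block), and 3 higher and 4 lower with siRNA B (0 and 6). The 9 became 5 without siRNA A replicate 1. With siRNA B the 3 higher became 1 when control replicate 3, or replicate 1 or 3 of siRNA B, was left out, and the 4 lower became 2 without control replicate 1 or siRNA B replicate 1 and 1 without control replicate 3. PTGES3 (p23), which stabilises the closed form of HSP90, fell by 1.49 with siRNA A, from 357 ± 24.7 to 127 ± 19.5. It stood at 353 ± 33.7 with siRNA B. SUGT1 had a log2 difference of 0.65 with siRNA A, not called on totals alone, and CDC37L1 one of 0.58 with siRNA B, likewise not called on totals. CDC37, the kinase-specific co-chaperone, fell by 0.71 with siRNA B. With siRNA A its log2 difference was 0.29 (adjusted p = 0.0394), a call lost in 8 of 18 alternatives, namely on totals alone (-0.074), with a filter at 5 CPM (0.26), in a fit of only the groups compared (0.29), and without control replicate 1 (0.32) or 2 (0.22), siRNA A replicate 1 (0.22) or 2 (0.30), or siRNA B replicate 1 (0.29).

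Of the 8 small heat shock proteins, 2 were tested and 0 were called by limma for either siRNA, and likewise 0 by edgeR, by DESeq2 or at an unadjusted p under 0.05. HSPB1 (HSP27) had log2 differences of 0.17 (adjusted p = 0.312) with siRNA A and 0.18 (adjusted p = 0.305) with siRNA B, which turned to -0.20 and -0.027 on totals alone. All 8 subunits of TRiC/CCT, the ring that folds actin and tubulin, were called higher with siRNA A (4 higher and 0 lower on totals), where 23.9% of all genes were. With siRNA B, 3 were higher and 3 lower (1 and 3 on totals). TCP1 had the highest difference with siRNA A, at 0.79, and CCT8 with siRNA B, at 0.49. CCT3 fell by 1.85 with siRNA B, from 739, 701 and 691 in control to 212, 169 and 211. With siRNA A it was 909.7, 933 and 855, a log2 difference of 0.34 that became -0.029 on totals alone and was not called without control replicate 2 or 3 or siRNA A replicate 1 or 2 (0.31 to 0.33). Of 6 subunits of prefoldin, which hands actin and tubulin to TRiC, 4 were higher and 1 lower with siRNA A (4 and 1 on totals), and 4 higher and 0 lower with siRNA B (2 and 0), where the 4 became 2 when control replicate 2 or 3, or replicate 1 or 3 of siRNA B, was left out. PFDN5 had log2 differences of 0.89 and 0.66, and VBP1 fell by 0.38 with siRNA A. With siRNA B, VBP1 was 0.30 higher (adjusted p = 0.0208), a call lost on totals alone (0.089) and when any of 4 libraries was left out (control replicate 2, 0.28, or 3, 0.27, and replicate 1, 0.30, or 3, 0.28, of siRNA B). Its difference between the siRNAs was -0.68 (adjusted p = 0.00018).

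Among 12 other mitochondrial chaperones and proteases, 3 were higher and 5 lower with siRNA A (1 and 6 on totals), and 2 higher and 2 lower with siRNA B (1 and 5). Each of these 2 counts for siRNA B became 1 with a library left out, the higher when any control library, or replicate 1 or 2 of siRNA B, was missing, and the lower without control replicate 3 or siRNA B replicate 3. HSPA9 moved in opposite directions with the siRNAs. It held 583, 534 and 644 in control, 385, 391 and 388 with siRNA A, and 842, 850.3 and 853 with siRNA B, and the 3 groups did not overlap. Its log2 difference was -0.59 with siRNA A (adjusted p = 0.00047), 0.53 with siRNA B (adjusted p = 0.0017) and -1.13 between them (adjusted p = 2.0e-05). GRPEL1, the nucleotide exchange factor of HSPA9, rose by 0.91 with siRNA A and DNAJA3, its J-domain partner, fell from 112 ± 5.79 to 55.5 ± 1.85 (SD, n = 3). LONP1, the matrix protease, fell by 0.77 in siRNA A libraries (adjusted p = 0.0002) and in siRNA B libraries by 0.50 (adjusted p = 0.0056). Set against each other, the siRNAs did not pass (-0.28, adjusted p = 0.0753).

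The chaperones of the endoplasmic reticulum, which answer to a different stress pathway, were counted for comparison. Of 14, 7 were higher and 4 lower with siRNA A (4 and 4 on totals), and 3 higher and 3 lower with siRNA B (2 and 7). HSPA5 (BiP), the HSP70 of that compartment, held 955, 675 and 897 in control, 1714, 1356 and 1449.5 with siRNA A, and 1547, 982 and 1162 with siRNA B. It rose by 0.85 with siRNA A (adjusted p = 0.0023). With siRNA B the log2 difference was 0.54 (adjusted p = 0.0395), with adjusted p up to 0.198 over the alternatives, and it was not called without control replicate 2 (0.37) or 3 (0.59), siRNA A replicate 3 (0.54) or siRNA B replicate 1 (0.35) or 3 (0.56). DNAJB9 rose by 1.21 and 1.03, and CRELD2 fell by 1.92 with siRNA A and fell by 2.15 with siRNA B. Whether the cytosolic and the endoplasmic reticulum genes differed as groups was not tested.

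**Figure D5:**
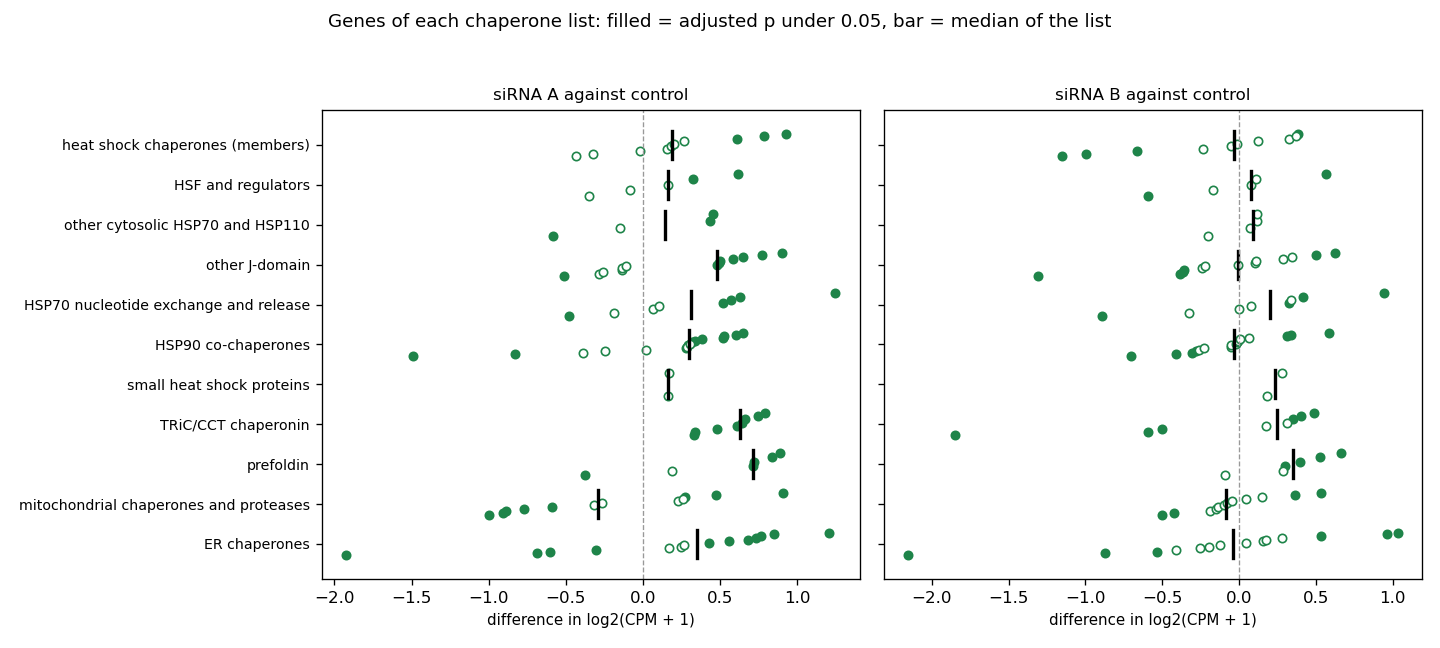
Difference in log2(CPM + 1) (x axis) of each gene of the chaperone lists for siRNA A and siRNA B against control, where filled points passed an adjusted p of 0.05 and black bars are list medians. The 8 TRiC/CCT subunits all lie right of 0 with siRNA A, and CCT3 is the far left point of that list with siRNA B. The row labelled HSP70 nucleotide exchange and release holds the HSP70 co-chaperones of the text, ST13 and STUB1 among them.

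The genes whose levels ran closest to those of HSPA8 over the 9 libraries, by the root mean square difference of centred log2 values, were LHFPL5 (0.0475), CPSF7 (0.0584), TTC38 (0.0640), WDR75 (0.0662) and TSR1 (0.0680). Those closest to HSPD1 were TRA2B (0.0465), MRPS35 (0.0567), RNF187 (0.0588), NGDN (0.0664) and CAMK2N1 (0.0696). None of the other 9 members was allowed in these rankings. Overlaps of the genes ranked here with their neighbours were not looked up.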

How the data were processed

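RNA of 9 HCT116 libraries was sequenced, 3 per group. The authors deposited 1 table of CPM values, with 15354 genes, scaled by library totals only. Per the labels' processing notes TopHat2, HTSeq and the build GRCh37 (hg19) were used; the handling of strand and of reads with several matches is not given in the sources used here. All values were whole multiples of 1 read (100% within 0.01 of a read), from which reads and totals were recovered. A count of 3 reads corresponds to 0.129 to 0.193 CPM. Groups and replicate numbers come from the titles. Because these values are CPM and not counts, limma 3.58.1 (R 4.3.3) was used, with a mean trend on log2(CPM + 1) after TMM scaling (edgeR 4.0.16), all 9 libraries in 1 model with a mean per group, over the 13893 genes (90.5%) that reached 1 CPM in 3 or more libraries. P-values were two-sided and adjusted by Benjamini-Hochberg over all genes tested, and called at 0.05. A fold is 2 to the power of the log2 difference. The fit was also run on simulated counts with few changed genes and a single setting of the spread. Many more genes were called in these data, so that run does not show how the fit behaves on them.

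The 10 members and the gene lists were chosen with earlier results of these data known. Named were all members, SNHG5, the gene with the largest called rise and fall per list and siRNA, and HSF1, HSPA5, HSPA9 and HSPB1; 7 listed chaperone genes and the cell type markers without a row were not analysed here. Gene coordinates are those of GENCODE v44 lifted to GRCh37, in which 14871 identifiers matched; promoters are RefSeq on GRCh38.p14. Alternatives were library totals alone, median-ratio size factors, a pseudocount of 0.1, no filter, a filter at 5 CPM, edgeR and DESeq2 1.42.0 on the recovered reads, the compared groups alone, the replicate number as a block, and each library left out. Same-numbered control and siRNA A libraries deviated together to unequal degrees (r = 0.646, 0.411 and 0.130). For control and siRNA B these values were 0.173, 0.445 and -0.386, and for siRNA A and siRNA B 0.204, 0.442 and 0.019. The main fit took no libraries as pairs, and the block used the replicate number in every group. The study's methods call the replicates biological. The limma p-values rest on the spread between replicates within groups, pooled over all groups and drawn toward the trend over all genes. Figures were drawn with matplotlib 3.10.9.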

Additional observations from a re-analysis of the deposited data

Results flagged for a closer look

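The effect of the siRNAs, each against the same control, differed for 5 of the 10 transcripts by the limma contrast of siRNA A with siRNA B. The log2 difference, siRNA A minus siRNA B, was 1.18 for DNAJB1, 0.72 for HSPA1B, 0.56 for HSP90AB1, 0.48 for HSPE1 and 0.40 for HSPD1, and in each case all 3 siRNA A libraries stood above all 3 siRNA B libraries. Over all genes tested, 37.1% were called in this contrast in either direction, and 17.6% were called higher in the siRNA A libraries. Such calls were therefore also common outside these transcripts. The share of all genes with both a call and libraries apart was not counted.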

How the results depend on the processing

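For the members, 494 of the 537 alternative values kept their direction and their side of the threshold, 13 passed it in addition, 15 no longer passed, and 15 changed sign. On library totals alone 5 members were called with siRNA A and 2 between the siRNAs, and the sign changed with siRNA A for HSPA8 (-0.17), HSP90AA1 (-0.10), HSPH1 (-0.21), DNAJB1 (-0.19), CCT3 (-0.029), CDC37 (-0.074) and HSPB1 (-0.20), and with siRNA B for HSPE1 (-0.085) and HSPB1 (-0.027). This follows from the shift of all genes on that scale. BAG3 with siRNA A turned to 0.0090 with median-ratio size factors, to 0.0039 with DESeq2, and ranged from -0.12 to 0.072 with 1 library left out. HSPH1 with siRNA B turned to 0.0072 with DESeq2 and ranged from -0.17 to 0.072 with 1 library left out, and HSPA8 with siRNA B from -0.10 to 0.019; the cause was not tested. With 1 library left out, 3 to 4 members were called with siRNA A, 3 to 5 with siRNA B, and 3 to 6 between the siRNAs. The replicate block grouped same-numbered libraries of control, siRNA A and siRNA B. With it, 4 members were called with siRNA A, HSPA1B (-0.44, adjusted p = 0.0157) in addition, and no other member's call changed. DESeq2 called 6 members with siRNA B, where HSP90AA1 (0.32) and HSP90AB1 (0.39) passed, and 6 between the siRNAs, where HSPA8 (0.28) passed. For DESeq2, the block and the fits with 1 library left out, the share of all genes called is not given here. The member counts of these settings are therefore not set against a background. HSPA1A was left out by the filter at 5 CPM. At 20 to 90 reads per library, its values are those most limited by depth.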
